A study of Mus musculus with 10 samples.

Results

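The epidermal differentiation complex is a cluster of genes that encode proteins of the outer epidermis and its cornified cells. Its members were taken from the gene table as every row holding a symbol that starts with Lce, Sprr or S100a followed by a digit, or that is Flg, Flg2, Lor, Ivl, Rptn, Hrnr, Crnn, Crct1 or Tchhl1. This gave 58 genes of the 24331 genes used. By name they comprise 14 Lce1 genes, 6 Lce3 genes, Lce6a, 2 Sprr1 genes, 11 Sprr2 genes, Sprr3, Sprr4, 14 S100a genes, 5 genes of fused-type S100 or filaggrin-like proteins (Flg2, Hrnr, Crnn, Rptn and Tchhl1), and Lor, Ivl and Crct1. Flg has no row in the table and was not analysed here. All 58 lie on chromosome 3 of the mouse build mm10 in GENCODE M21, from the start of S100a1 at position 90511034 to the end of S100a10 at 93564643.

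RNA was sequenced from full-thickness back skin of wild type male C57BL/6 mice aged 7 to 8 weeks. The back had been depilated with wax, which starts a new hair growth phase (anagen), and 150 mg/kg cyclophosphamide, a prodrug whose products alkylate DNA, was injected into the peritoneum on day 9 after depilation. Skin was taken 6h, 12h, 24h and 48h after the injection and, as the baseline, before it (0h), with 2 libraries per time and 10 in all, called library 2 and library 3 after the numbers in the table. All groups, 0h included, had been depilated, and no vehicle-injected mice are among the samples, so the effects of time since injection and of time since depilation cannot be told apart. No label says that a time's libraries were made from different mice. The p-values therefore reflect the spread between libraries alone, which may be technical. Summed over all genes, a library held between 863187 and 979067 FPKM (fragment counts divided by transcript length and by the number of mapped fragments). Absolute depth is not known from FPKM, and low values put the relative depth of 0h library 3 at 1.48 times that of 0h library 2.

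In the epidermis, keratinocytes leave the basal layer, pass through spinous and granular layers and end as dead cornified cells. Loricrin, involucrin, the small proline-rich (SPRR) proteins and the late cornified envelope (LCE) proteins are joined by transglutaminases into the cornified envelope beneath the membrane, while filaggrin-like proteins bind keratin filaments. S100 proteins bind calcium, and S100a8 and S100a9 together form calprotectin, which binds metal ions and is abundant in neutrophils and in stressed keratinocytes. SPRR and LCE3 genes are known to be raised in wounded or irritated epidermis.

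The stretches before the annotated starts of 7 members are shown because they carry, or lack, the short motifs counted below by family. Each is the 250 bases before the start, 5′ to 3′ on the gene's strand, from RefSeq on GRCm38.p6, with motif letters in capitals.
Sprr1a, chr3:92485882-92486131 (minus strand): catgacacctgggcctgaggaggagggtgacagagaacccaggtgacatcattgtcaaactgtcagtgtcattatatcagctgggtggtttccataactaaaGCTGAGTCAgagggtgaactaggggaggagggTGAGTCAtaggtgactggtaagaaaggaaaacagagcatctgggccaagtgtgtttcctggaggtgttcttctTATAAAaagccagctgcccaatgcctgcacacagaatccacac
Sprr2h, chr3:92385435-92385684 (plus strand): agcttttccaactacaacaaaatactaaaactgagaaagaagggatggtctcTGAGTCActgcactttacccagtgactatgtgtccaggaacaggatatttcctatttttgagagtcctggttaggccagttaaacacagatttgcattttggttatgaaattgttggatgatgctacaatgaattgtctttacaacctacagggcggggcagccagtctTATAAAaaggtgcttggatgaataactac
Crnn, chr3:93144539-93144788 (plus strand): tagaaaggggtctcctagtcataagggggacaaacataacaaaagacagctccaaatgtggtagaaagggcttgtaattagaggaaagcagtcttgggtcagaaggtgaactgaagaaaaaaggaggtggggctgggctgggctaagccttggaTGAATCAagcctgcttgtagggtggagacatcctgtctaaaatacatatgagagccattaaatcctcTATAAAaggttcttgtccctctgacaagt
Lor, chr3:92083143-92083392 (minus strand): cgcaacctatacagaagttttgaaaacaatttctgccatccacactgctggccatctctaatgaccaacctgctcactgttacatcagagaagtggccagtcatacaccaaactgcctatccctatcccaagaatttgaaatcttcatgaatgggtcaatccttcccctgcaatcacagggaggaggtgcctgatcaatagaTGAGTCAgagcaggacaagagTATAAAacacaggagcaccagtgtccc
S100a8, chr3:90668821-90669070 (plus strand): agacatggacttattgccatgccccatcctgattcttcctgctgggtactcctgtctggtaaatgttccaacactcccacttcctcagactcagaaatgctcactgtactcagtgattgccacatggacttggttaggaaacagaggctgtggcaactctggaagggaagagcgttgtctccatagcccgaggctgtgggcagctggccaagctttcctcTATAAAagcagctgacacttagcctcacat
Lce3a, chr3:92926231-92926480 (minus strand): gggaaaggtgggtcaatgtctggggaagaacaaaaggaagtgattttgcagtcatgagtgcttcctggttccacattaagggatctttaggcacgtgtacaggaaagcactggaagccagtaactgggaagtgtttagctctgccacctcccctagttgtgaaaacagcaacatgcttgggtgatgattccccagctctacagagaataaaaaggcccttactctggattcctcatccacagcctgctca
Lce1h, chr3:92765066-92765315 (minus strand): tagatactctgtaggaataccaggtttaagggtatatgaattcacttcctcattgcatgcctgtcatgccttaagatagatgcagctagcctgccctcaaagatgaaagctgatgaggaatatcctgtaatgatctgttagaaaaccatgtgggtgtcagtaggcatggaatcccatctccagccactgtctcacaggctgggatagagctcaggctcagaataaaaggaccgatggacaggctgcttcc
The capitals mark 4 motifs, searched on both strands. TGANTCA, called AP-1 letters here, covers the usual letters of AP-1 sites, TGAGTCA and TGACTCA, and also the looser TGAATCA and TGATTCA. TTGCNNAA is one form of the C/EBP letters, TGACNNNGC the antioxidant response element (ARE) and TATAAA the TATA box. Sprr1a holds AP-1 letters starting 146 and 116 bases before its start, the first overlapping ARE letters at 148, and TATA letters at 43. Lor holds AP-1 letters at 48 and TATA letters at 27, and Crnn holds them at 96 and 29. Sprr2h, the most abundant Sprr2 gene here, holds AP-1 letters at 198 and TATA letters at 29, a layout close to that of its neighbours, since all 7 Sprr2 windows with AP-1 letters also hold TATA letters at 29. S100a8 holds only TATA letters, at 30, while Lce3a and Lce1h hold none of the 4 motifs as searched. Both do hold the letters GAATAAAA near the end of the window, which an exact search for TATAAA does not count. A window without TATA letters may therefore still hold a similar element.

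RefSeq gave such windows for 51 of the 58 members, 55 windows in all. AP-1 letters were in 17 of the 55 windows (30.91%), against 6.749% of 32851 mouse promoter windows of the same length. By family they were in 7 of 9 Sprr2, 2 of 2 Sprr1, 4 of 5 fused-type or filaggrin-like and 2 of 2 Lor and Ivl windows, and in 2 of 15 S100a, 0 of 13 Lce1 and 0 of 6 Lce3 windows. TATA letters were in 22 of 55 windows (40.0%), against 12.37% of all windows. They were counted at any position, as at 218 bases before the start in Lce6a and 243 in Lce3e. C/EBP letters were in 9.091% of the members' windows and 9.56% of all, and ARE letters in 16.36% and 10.16%. Windows of neighbouring paralogs share sequence and are not independent, and a match is a description of letters, not of a bound site.

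**Figure D1:**
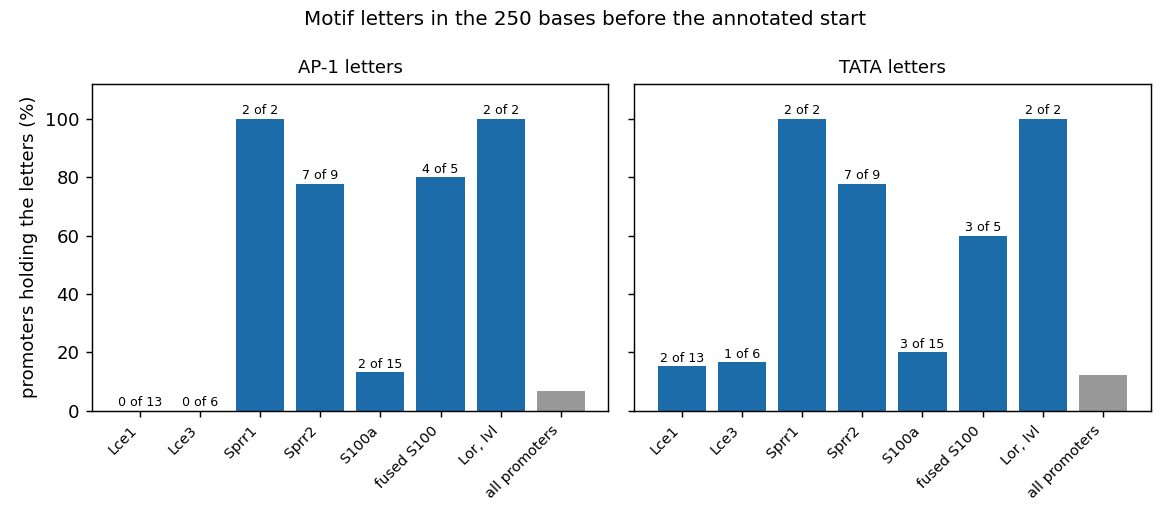
Share of promoter windows (%, vertical axis) that hold AP-1 or TATA letters, by gene family, with the number of windows above each bar and all 32851 mouse windows in grey. AP-1 letters are in 7 of 9 Sprr2 windows and in none of the 13 Lce1 and 6 Lce3 windows.

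Which of these genes change after the drug was asked by comparing each later time with 0h. At 24h and 48h the genes that rose were mostly of the Sprr, Lce3, Lce1 and calprotectin groups, while the abundant S100a3, Crct1, Lor and Lce1m did not pass the test. A gene entered the test where 2 or more libraries reached 1 FPKM, which holds for 50 of the 58 members. The other 8 (Lce3e, S100a2, S100a5, Sprr2a2, Sprr2i, Sprr2j-ps, Sprr2k and Sprr3) stayed low, and S100a2 and Sprr3 were listed at 0 in every library. The test was limma on log2(FPKM + 1), two-sided, with Benjamini-Hochberg adjustment over 13625 genes and a threshold of 0.05, and a log2 fold change is a difference on that scale, with the standard error (SE) of the fit.

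At 24h, 9 members were higher than at 0h and 0 were lower, where 1.37% of all genes tested were called higher and 1.94% lower. At 48h, 9 were higher and 1 was lower, where 4.8% of all genes were called higher and 4.12% lower. Without 0h library 2 the counts were 1 at 24h and 4 at 48h, and without 0h library 3 they were 4 and 5. Without 24h library 3 the 24h count was 2, and without either 48h library the 48h count was 4. In each of these fits fewer of all genes were called as well. At 6h no member passed (10 at an unadjusted p under 0.05), where 0.044% of all genes were called and 12.3% had such a p. At 12h no member passed either (12 at an unadjusted p under 0.05), where 1.08% of all genes were called and 15.8% had such a p. An F test over the 4 comparisons called 10 members, where 7.35% of all genes were called. Since the 4 comparisons share the 0h libraries, their results are given side by side and not as separate evidence.

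Both libraries lay above both 0h libraries for 29 tested members at 24h, where this held for 15.8% of all genes tested, and for 33 at 48h, where it held for 27.0%. The median log2 difference of the 50 tested members from 0h was 0.32 at 6h, where all genes tested had 0.04, and 0.26 at 12h, where they had -0.07. It was 0.49 at 24h, where all genes had -0.10, and 0.60 at 48h, where they had -0.01. Some low members, such as Lce3a and Lce3b, entered the test only through later libraries and so had to differ. Of the 41 members that averaged at least 5 FPKM over the 10 libraries, 7 were called higher at 24h and 6 higher and 1 lower at 48h, with median log2 differences of 0.38 and 0.60. Of all 9016 genes tested at that level, 140 were called higher and 200 lower at 24h, and 486 higher and 432 lower at 48h. Their median log2 differences were -0.11 and -0.03. Scaling the libraries by median-of-ratios turned the 24h calls over all genes from 187 higher and 265 lower to 304 higher and 162 lower, and with it 12 members were called higher at 24h and 7 higher and 0 lower at 48h.

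**Figure D2:**
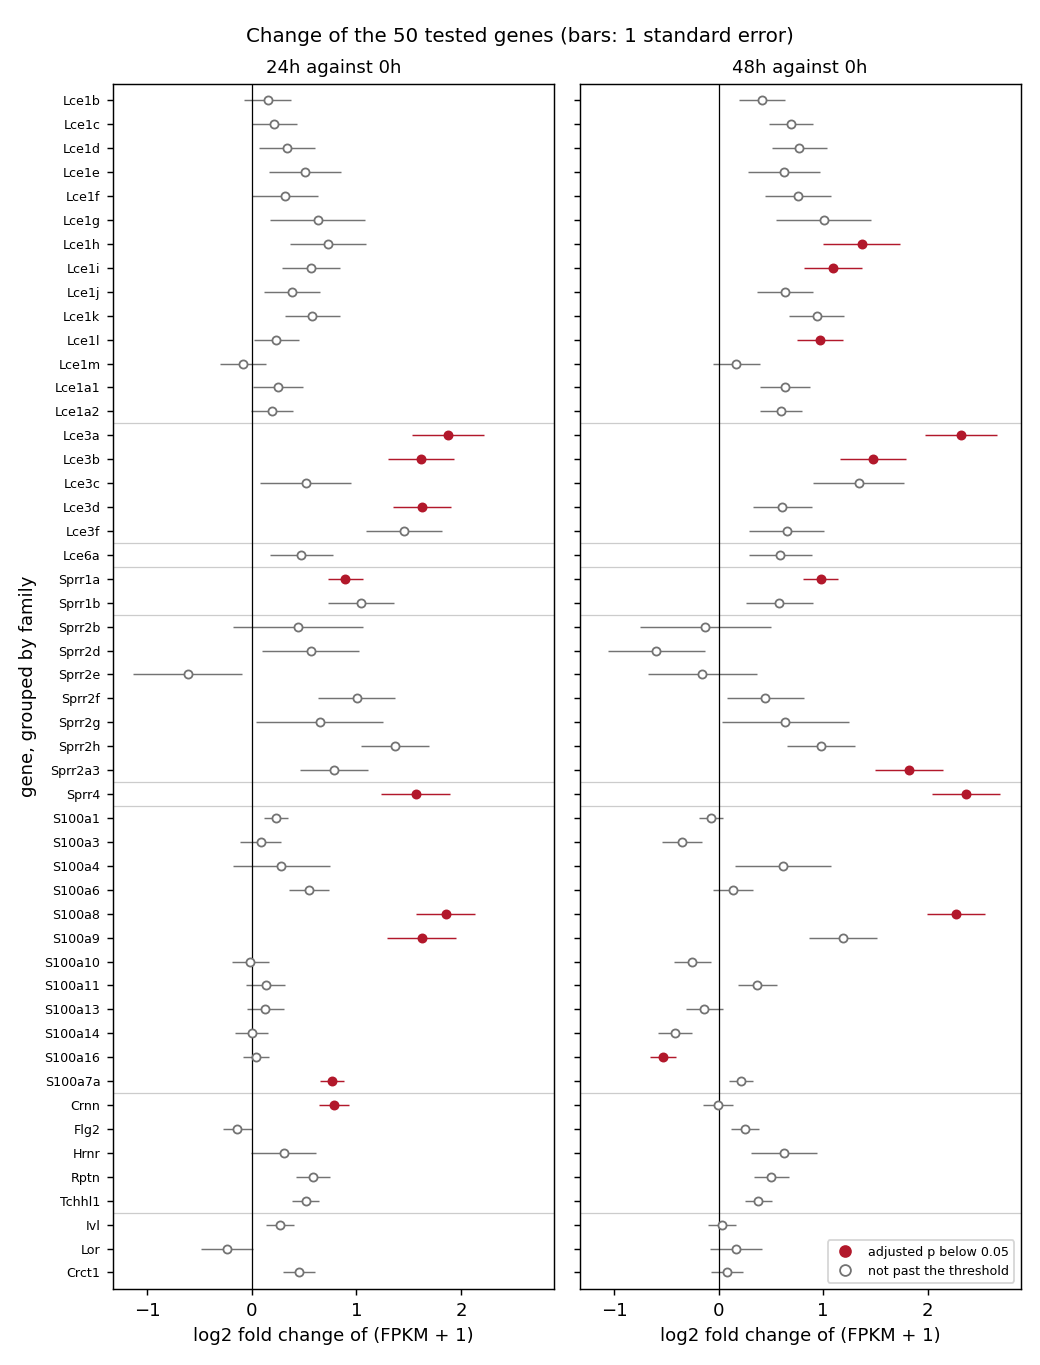
Log2 fold change of (FPKM + 1) with 1 SE (horizontal axis) for the 50 tested members, grouped by family down the page, at 24h (left) and 48h (right) against 0h; red points passed the adjusted p of 0.05. Sprr4, S100a8 and Lce3a lie farthest right at 48h, and S100a16 is the member called lower.

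As a whole the complex made up between 2.65% and 3.37% of the summed FPKM of a library. Its summed level was 28620 and 25018 FPKM at 0h, 27719 and 23692 at 6h, 27443 and 31707 at 12h, 32464 and 31509 at 24h, and 29329 and 30157 at 48h. Both 24h libraries and both 48h libraries lay above both 0h libraries, and 2 libraries against 2 cannot pass an exact permutation test. One gene held much of this sum, because S100a3, a calcium-binding protein of the hair cuticle, had between 6216 and 10660 FPKM. In RNA of whole skin, fewer cells of a type and less RNA per cell cannot be told apart.

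Among the SPRR genes, which encode small envelope proteins rich in proline, Sprr4 changed most. Sprr4 had 105 and 160 FPKM at 0h, 170 and 215 at 6h, 145 and 162 at 12h, 256 and 581 at 24h, and 614 and 736 at 48h. All 4 libraries of 24h and 48h lay above the highest 0h library, although the 24h libraries were far apart. The log2 fold change was 1.57 (SE 0.33, adjusted p = 0.0335, limma) at 24h and 2.37 (SE 0.33, adjusted p = 0.00283) at 48h, a 5.10-fold higher mean at 48h. The 24h call was lost when 1 of 5 libraries was left out, among them 24h library 3, and the 48h call was kept in all 10 such fits.

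Sprr1a, which encodes a cross-linked envelope precursor, was the most abundant SPRR gene, and its libraries were higher than at 0h from 6h onwards. It had 1896 and 1379 FPKM at 0h, 2759 and 2509 at 6h, 2880 and 2600 at 12h, 2974 and 3040 at 24h, and 2969 and 3411 at 48h. No later library overlapped the 0h libraries, but the test passed only at 24h and 48h. The log2 fold change was 0.70 (adjusted p = 0.165, limma) at 6h, 0.76 (adjusted p = 0.0690) at 12h, 0.89 (SE 0.17, adjusted p = 0.0264) at 24h and 0.98 (SE 0.17, adjusted p = 0.00800) at 48h. Leaving out either 0h library or either 24h library lost the 24h call. The other Sprr1 gene, Sprr1b, was far less abundant, with 12.3 and 20.5 FPKM at 0h and 25.2 and 45.3 at 24h, and did not pass at any time.

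The 11 Sprr2 genes were low, and 1 of the 7 tested passed, at 48h, where 4.8% of all genes were called higher. Sprr2a3 had 11.01 and 7.97 FPKM at 48h, against 1.70 and 2.17 FPKM at 0h, with no overlap (a log2 fold change of 1.83, SE 0.33, adjusted p = 0.00867, limma). Its transcript is 98.3% identical to that of Sprr2a2 in GENCODE M21, so how reads were divided between them is uncertain, and Sprr2a2 was listed at no more than 0.268 FPKM. Sprr2h, the most abundant of the group, had 25.3 and 34.9 FPKM at 24h and 23.6 and 21.4 FPKM at 48h, against 6.60 and 17.7 FPKM at 0h, and the adjusted p was 0.0540 at 24h and 0.0940 at 48h. The other tested Sprr2 genes did not exceed 4.52 FPKM in any library.

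Among the LCE genes, the Lce3 genes were low and the Lce1 genes abundant. Of 5 tested Lce3 genes 3 were called higher at 24h and 2 at 48h, and of 14 Lce1 genes 0 at 24h and 3 at 48h. Of all genes tested, 1.37% were called higher at 24h and 4.8% at 48h. The timing of the groups was not compared by a test. Lce3a had 0 and 0.867 FPKM at 0h, 1.76 and 2.26 at 6h, 4.30 and 2.24 at 12h, 3.18 and 5.04 at 24h, and 7.34 and 4.59 at 48h. Every later library lay above both 0h libraries. The log2 fold change was 1.88 (SE 0.34, adjusted p = 0.0235, limma) at 24h and 2.32 (SE 0.34, adjusted p = 0.00390) at 48h. Lce3b was listed at 0 in both 0h libraries, and it had 1.09 and 3.53 FPKM at 24h and 1.70 and 1.88 FPKM at 48h (adjusted p = 0.0283 and 0.0200, limma). Neither gene reached 1 FPKM at 0h, so both entered the test only through later libraries in which they were higher, and their calls are given as a description. Fitted with no filter on low values, both passed at 48h and neither at 24h.

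Lce3d, the Lce3 gene with the highest mean over the 10 libraries, had 7.64 and 3.88 FPKM at 0h, 12.8 and 14.1 at 6h, 9.85 and 17.0 at 12h, 17.6 and 20.6 at 24h, and 8.24 and 9.65 at 48h. It was highest at 24h, and its 48h libraries lay just above the higher 0h library. It passed at 24h (a log2 fold change of 1.63, SE 0.28, adjusted p = 0.0190, limma) and not at 48h (0.61, SE 0.28, adjusted p = 0.209), and its fall between those times did not pass (-1.02, SE 0.28, adjusted p = 0.0891). Without the filter on low values, its 24h call was lost. The Lce3b and Lce3c transcripts are 91.6% identical, which leaves the split of reads between them uncertain.

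All 14 Lce1 genes, which encode envelope proteins of normal upper epidermis, had a positive log2 difference at 48h, from 0.17 to 1.37 with a median of 0.73. In 13 of these genes both 48h libraries lay above both 0h libraries, where this held for 27.0% of all genes tested. The test was passed by 3, where 4.8% of all genes were called higher. Lce1h had 149 and 173 FPKM at 48h, against 50.9 and 74.6 FPKM at 0h (a log2 fold change of 1.37, SE 0.36, adjusted p = 0.0458, limma). Lce1i had 218 and 260 FPKM at 48h, against 110 and 111 FPKM at 0h (1.10, SE 0.28, adjusted p = 0.0376). Lce1l had 314 and 309 FPKM at 48h, against 164 and 153 FPKM at 0h (0.97, SE 0.22, adjusted p = 0.0250). The 48h libraries of these 3 genes did not overlap those of 0h, but all 3 calls were lost when either 0h library or either 48h library was left out, and those of Lce1h and Lce1i under median-of-ratios scaling. The most abundant Lce1 gene, Lce1m, had 1963 and 1867 FPKM at 48h, against 1952 and 1485 FPKM at 0h, which overlap (0.17, SE 0.22, adjusted p = 0.690). Lce1m and its neighbour Crct1 lie apart from the other Lce1 genes, beyond the Lce3 group.

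The Lce1 genes also differed between the libraries of one time. At 12h all 14 were higher in library 3 than in library 2, by 1.44 to 2.62 times with a median of 1.90. In the same pair of libraries the summed suprabasal keratins were 1.44 times higher in library 3, the summed skeletal muscle markers 1.45 times higher and the summed fibroblast markers 0.608 times as high. The part of these differences in the Lce1 values was not tested. Lce1 transcripts are between 49.4% and 90.0% identical, with Lce1h and Lce1j the closest pair, so reads may be shared among them and the 14 genes are not 14 independent measurements.

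**Figure D3:**
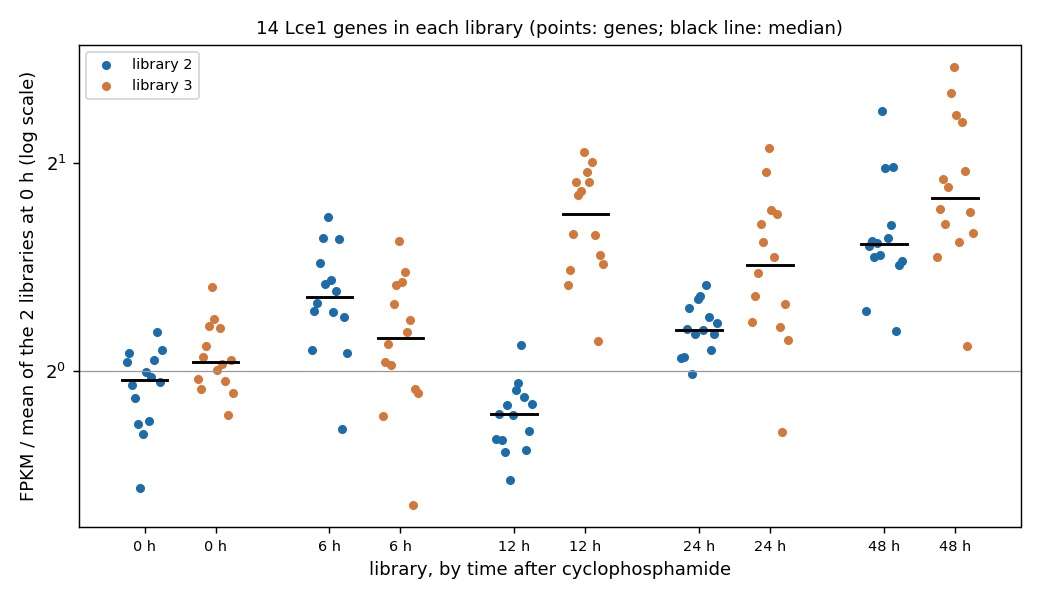
FPKM of the 14 Lce1 genes divided by each gene's mean at 0h (vertical log2 axis), in each of the 10 libraries by time; points are genes and black lines medians. The 12h libraries stand apart from each other, with all 14 genes higher in library 3, and both 48h libraries lie mostly above 1.

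Of the 12 tested S100a genes, 3 were called higher at 24h, where 1.37% of all genes were, and 1 higher and 1 lower at 48h, where 4.8% and 4.12% of all genes were. The 48h counts of this family are near that background. S100a8, 1 subunit of calprotectin, had 62.0 and 101 FPKM at 0h, 126 and 103 at 6h, 126 and 102 at 12h, 384 and 218 at 24h, and 368 and 408 at 48h. Its 24h and 48h libraries all lay more than 2 times above the higher 0h library. The log2 fold change was 1.85 (SE 0.28, adjusted p = 0.0114, limma) at 24h and 2.27 (SE 0.28, adjusted p = 0.00144) at 48h. The 48h call was kept in all 10 fits that left out a library, and the 24h call was lost without 0h library 2 (adjusted p = 0.106).

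S100a9, the other subunit, had 8.22 and 6.74 FPKM at 0h, 38.1 and 28.7 at 6h, 11.6 and 25.3 at 12h, 19.1 and 32.8 at 24h, and 17.4 and 19.2 at 48h. Every later library was above both 0h libraries, and the highest mean was at 6h, where it was 4.46-fold that of 0h but the test did not pass (adjusted p = 0.0890, limma). It passed at 24h (1.63, SE 0.33, adjusted p = 0.0306) and not at 48h (1.19, SE 0.33, adjusted p = 0.0524). In FPKM, which is per length, S100a8 was above S100a9 in every library, and the 2 genes did not follow one course, since S100a8 was near its 0h range at 6h.

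Markers of neutrophils, which also carry calprotectin, were measured beside these genes. Of 21 listed markers 20 have a row, Ngp and Cxcr1 were listed at 0 in every library, and 0 of the 9 tested passed at any time. Mpo, a granule enzyme, was listed at 0 in 9 of the 10 libraries and at 0.0480 FPKM in 24h library 3. The summed markers were 45.9 and 116 FPKM at 24h and 96.1 and 133 FPKM at 48h, against 32.2 and 56.3 FPKM at 0h. Most of this sum came from Stfa1 (59.9 and 88.8 FPKM at 48h, against 3.52 and 24.1 FPKM at 0h) and Il1r2 (26.3 and 34.3 FPKM at 48h, against 22.1 and 23.7 FPKM at 0h). Csf3r, the receptor for granulocyte colony-stimulating factor, had 1.21 and 2.12 FPKM at 6h and 0.271 and 0.385 FPKM at 48h, against 0.310 and 0.275 FPKM at 0h. The part of neutrophils in S100a8 and S100a9 was not tested. Of the 14 macrophage and dendritic cell markers tested, 0 passed at 24h or 48h. Of all genes tested, 1.37% were called higher and 1.94% lower at 24h, and 4.8% and 4.12% at 48h. Counts of 0 among so few markers are near that background.

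**Figure D4:**
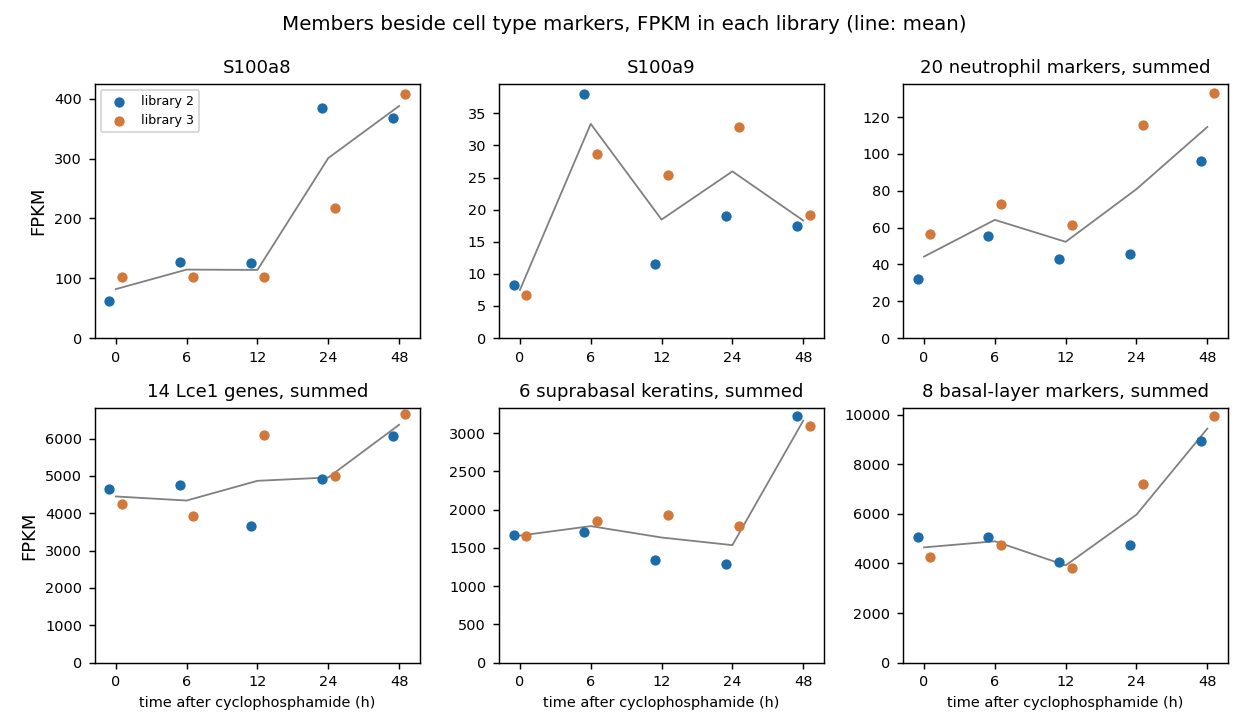
FPKM (vertical axes) of S100a8, S100a9, the summed neutrophil markers, the summed Lce1 genes, the summed suprabasal keratins and the summed basal-layer markers in each library, at 5 times (h, horizontal axis, equally spaced); lines join the means. S100a8 is high at 24h and 48h, the S100a9 mean peaks at 6h, and the suprabasal keratin sum is high in both 48h libraries.

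S100a7a, a relative of human psoriasin, rose at 24h. It had 195 and 174 FPKM at 24h, against 113 and 104 FPKM at 0h, with no overlap (a log2 fold change of 0.76, SE 0.11, adjusted p = 0.0107, limma), and 124 and 128 FPKM at 48h (adjusted p = 0.272). S100a16 was the member that fell: it had 636 and 662 FPKM at 48h, against 1008 and 871 FPKM at 0h (-0.53, SE 0.13, adjusted p = 0.0307), and this call was lost under median-of-ratios scaling. S100a3 had 10660 and 8154 FPKM at 24h and 7675 and 6216 FPKM at 48h, against 9499 and 8158 FPKM at 0h, and did not pass (adjusted p = 0.840 at 24h and 0.295 at 48h). S100a4, which many fibroblasts and macrophages also carry, had 95.5 and 375 FPKM in the 24h libraries, the largest ratio between libraries (3.93) of the S100a genes at that time. In the same pair of libraries the summed fibroblast markers were 1.54 times, and the summed macrophage markers 1.44 times, as high in library 3, and the part of this in S100a4 was not tested.

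Among the fused-type S100 and filaggrin-like genes, whose proteins join a calcium-binding domain to long repeats, Crnn passed. Crnn, which encodes cornulin, had 287 and 357 FPKM at 0h, 495 and 411 at 6h, 478 and 441 at 12h, 550 and 556 at 24h, and 330 and 310 at 48h. Its libraries from 6h to 24h lay above those of 0h, and its 48h libraries lay within the 0h range. The log2 fold change was 0.79 (SE 0.14, adjusted p = 0.0228, limma) at 24h, and the call was lost when 0h library 2 or either 24h library was left out. At 48h the difference from 0h was near 0 (adjusted p = 0.994).

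Tchhl1, a trichohyalin-like gene, had 711 and 661 FPKM at 24h and 604 and 644 FPKM at 48h, against 449 and 511 FPKM at 0h, without overlap but with adjusted p of 0.0635 and 0.0980. Rptn, which encodes repetin, had 11.2 and 12.2 FPKM at 24h and 11.4 and 10.6 FPKM at 48h, against 6.36 and 8.70 FPKM at 0h, again without overlap and with adjusted p of 0.0865 and 0.0881. Flg2, which encodes filaggrin-2, had 51.9 and 53.6 FPKM at 48h, against 46.0 and 42.3 FPKM at 0h (adjusted p = 0.283). Hrnr, which encodes hornerin, had 13.6 and 23.7 FPKM at 48h, against 9.56 and 13.4 FPKM at 0h (adjusted p = 0.254).

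Lor, Ivl and Crct1 did not pass at any time. Lor, which encodes loricrin, the main protein of the envelope, had 2519 and 1767 FPKM at 0h, 1238 and 1226 at 6h, 2067 and 3560 at 12h, 1952 and 1634 at 24h, and 2379 and 2364 at 48h. Its 6h libraries lay below both 0h libraries, but the test did not pass (log2 fold change -0.78, adjusted p = 0.264, limma), and its 12h libraries differed as those of the Lce1 genes did. Ivl, which encodes involucrin, stayed between 84.3 and 119 FPKM in all libraries. Crct1 had 3715 and 3795 FPKM at 24h, against 2903 and 2590 FPKM at 0h, without overlap but with an adjusted p of 0.135. A p that misses the threshold does not show that these genes were steady.

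**Figure D5:**
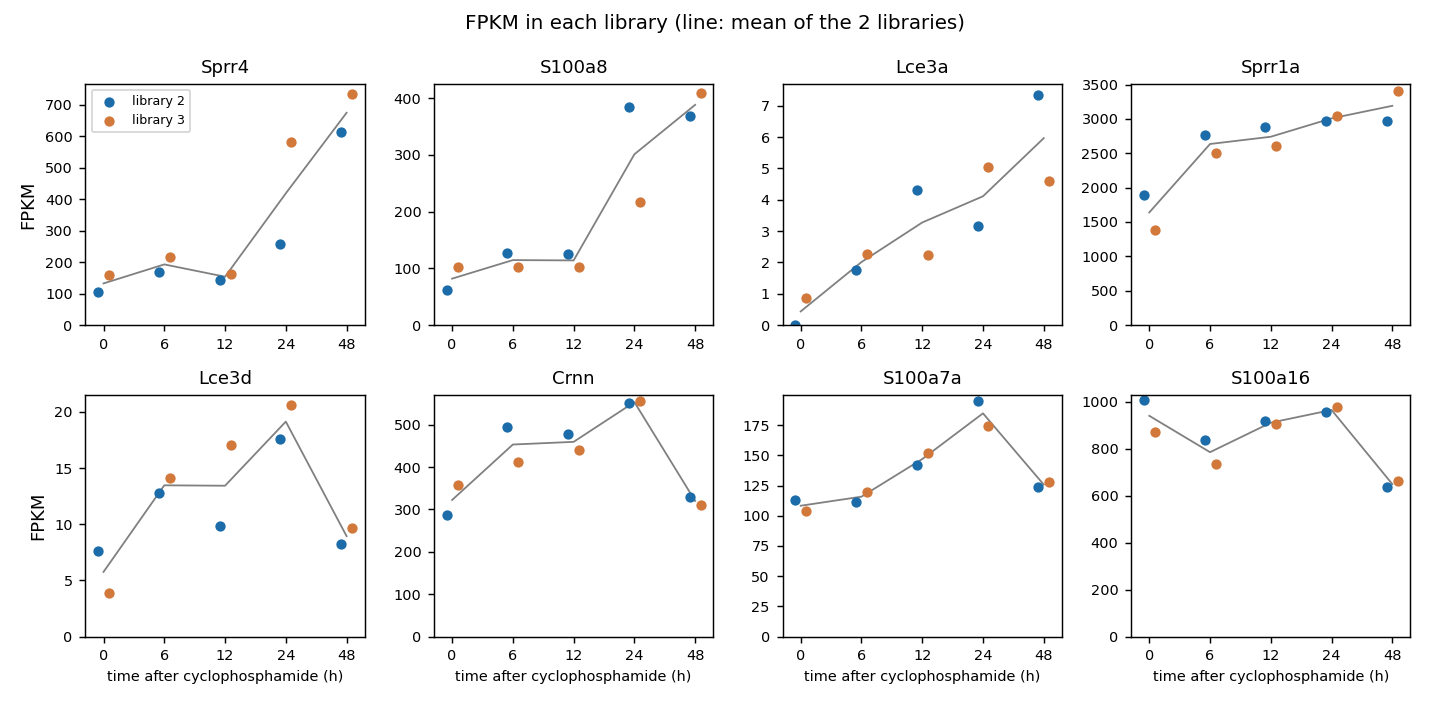
FPKM (vertical axes, from 0) of 8 members in each library at 5 times (h, horizontal axis, equally spaced), with lines joining the means. Sprr4, S100a8 and Lce3a are highest at 48h, while Lce3d, Crnn and S100a7a are highest at 24h and S100a16 is lowest at 48h.

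Between successive later times, no member passed for 24h against 12h (9 at an unadjusted p under 0.05), where 0.022% of all genes were called and 9.9% had such a p. For 48h against 24h, 0 members were higher and 3 lower, where 1.22% of all genes were called higher and 1.04% lower. These were Crnn (a log2 fold change of -0.79, SE 0.14, adjusted p = 0.0263, limma), S100a7a (-0.55, SE 0.11, adjusted p = 0.0404) and S100a16 (-0.57, SE 0.13, adjusted p = 0.0497). In all 3 both 48h libraries lay below both 24h libraries, so leaving out a library could not turn their log2 differences positive. None of the 3 calls was kept in all fits that left out a library. Without 24h library 3, 3 members were called higher and 0 lower, without either 12h library 1 higher and 1 lower, without either 0h library 0 higher and 1 lower, and without 24h library 2 or either 48h library none. Median-of-ratios scaling turned the calls over all genes from 166 higher and 142 lower to 85 higher and 196 lower, and kept 2 of the 3.

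Motif letters were counted against the calls as a description. AP-1 letters were in the windows of 3 of the 14 members called at 24h or 48h (Crnn, S100a16 and Sprr1a) and of 12 of the 31 tested members with a window that were not called. These were only a looser form in Crnn and S100a16 and, of those not called, in Flg2, Rptn, Sprr1b and Tchhl1. For TATA letters the counts were 3 of 14 (Crnn, S100a8 and Sprr1a) and 15 of 31. Sprr4 is annotated from its start codon, so its window may not be a promoter.

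Other genes of cornification and of the epidermal layers were set beside the complex. Of 40 tested genes that cross-link, cleave or lubricate cornified cells, 7 were higher and 1 lower at 48h and 1 was higher at 24h. Of all genes, 4.8% were called higher and 4.12% lower at 48h, and 1.37% higher at 24h. The 24h count and the count of those lower at 48h are near that background. The medians of the 40 genes at 48h and 24h were 0.25 and 0.16 on the log2 scale, where all genes had -0.01 and -0.10. Cst6, which encodes cystatin M/E, an inhibitor of the proteases of cornification, had 583 and 854 FPKM at 48h, against 228 and 276 FPKM at 0h (a log2 fold change of 1.49, SE 0.27, adjusted p = 0.00977, limma). Spink5, which encodes the kallikrein inhibitor LEKTI, had 55.7 and 63.2 FPKM at 48h, against 31.0 and 37.0 FPKM at 0h (0.79, SE 0.15, adjusted p = 0.0120). Kprp and Cdsn (corneodesmosin, which holds cornified cells together) also rose, and so did Alox12b, Nipal4 and Cnfn, with Cnfn the gene called at 24h, while the desmosomal cadherin Dsc1 fell. Tgm1, which encodes the main envelope transglutaminase, had 63.1 and 56.1 FPKM at 48h, against 77.6 and 71.2 FPKM at 0h, and did not pass against 0h (adjusted p = 0.123). For 48h against 24h, Tgm1 and Dsc1 were called lower and Alox12b higher. In that comparison 1.22% of all genes were called higher and 1.04% lower.

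Some genes of the basal and of the upper layers were higher at 48h, where 4.8% of all genes tested were called higher, against 1.37% at 24h. Of 6 tested suprabasal keratins 4 rose at 48h (Krt2, Krt1, Krt10 and Krt78) and 0 at 24h, and their sum was 3228 and 3097 FPKM at 48h, against 1665 and 1657 FPKM at 0h. Krt2, a keratin of the upper spinous layer, had 118 and 50.8 FPKM at 48h, against 5.36 and 4.05 FPKM at 0h (a log2 fold change of 3.79, SE 0.43, adjusted p = 0.00101, limma). Krt1 had 664 and 758 FPKM at 48h, against 235 and 302 FPKM at 0h (1.41, SE 0.33, adjusted p = 0.0295), and its partner Krt10 had 1709 and 1719 FPKM, against 952 and 882 FPKM (0.90, SE 0.20, adjusted p = 0.0221). Of 8 basal-layer genes 4 rose at 48h (Krt14, Krt5, Itgb4 and Col17a1), with Krt14 at 5026 and 5581 FPKM, against 2559 and 2159 FPKM at 0h (1.17, SE 0.22, adjusted p = 0.0113). The part of these levels in the 48h values of the Lce1 genes, of which 3 of 14 passed, was not tested.

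Where 1.37% of all genes were called higher at 24h and 4.8% at 48h, 1 of 4 keratins of stressed or wounded epidermis passed. Krt6a did so at both times, with 339 and 569 FPKM at 24h and 493 and 533 FPKM at 48h, against 212 and 195 FPKM at 0h (a log2 fold change of 1.11, SE 0.20, adjusted p = 0.0237 and 1.33, SE 0.20, adjusted p = 0.00450, limma). Krt16, its partner, had 78.0 and 279 FPKM at 24h and did not pass (adjusted p = 0.145), and it had 139 and 152 FPKM at 48h, against 63.9 and 61.5 FPKM at 0h (adjusted p = 0.112).

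Of 28 tested transcription regulators of keratinocyte differentiation, 0 passed at 24h, and 1 was higher and 4 lower at 48h, where 4.8% of all genes were called higher and 4.12% lower. The count of those higher is near that background. Nfe2l2, which encodes NRF2, the factor that binds ARE letters, had 26.2 and 27.4 FPKM at 48h, against 20.0 and 20.4 FPKM at 0h (a log2 fold change of 0.39, SE 0.10, adjusted p = 0.0461, limma). Maf (-1.06), Tfap2a (-0.76), Hopx (-0.66) and Ovol1 (-0.45) fell, all with groups that did not overlap. Klf4 and Trp63, regulators of barrier formation and of the basal layer, did not pass at either time (adjusted p = 0.286 and 0.737 at 48h). Of 9 tested cytokines, growth factors and receptors that induce members in cultured keratinocytes 1 passed at 6h and 12h, 0 at 24h or 48h against 0h, and 2 were lower at 48h than at 24h. Of all genes tested, 0.044% were called at 6h and 1.08% at 12h, and 1.04% were called lower at 48h than at 24h. Il1b, which encodes interleukin 1 beta, had 5.77 and 5.85 FPKM at 6h and 1.88 and 2.27 FPKM at 12h, against 0.60 and 0.808 FPKM at 0h (adjusted p = 0.00209 and 0.0403, limma). It did not reach 1 FPKM at 0h, so it entered the test only through later libraries in which it was higher. Its calls are given as a description. Areg and Tgfa, which encode ligands of the EGF receptor, were lower at 48h than at 24h (-1.34, SE 0.23, adjusted p = 0.0203 and -1.06, SE 0.16, adjusted p = 0.0135). Il17a, Il17f, Il22, Il20 and Il24 were listed at 0 in every library.

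Markers of some other parts of the skin also differed from 0h. Of all 13625 genes tested, 109 were called lower at 12h. At 24h 1.37% were called higher and 1.94% lower, and at 48h 4.8% higher and 4.12% lower. Of 18 skeletal muscle markers 7 were lower at 12h, 9 at 24h and 12 at 48h, with a sum of 8307 and 9202 FPKM at 48h, against 20587 and 18712 FPKM at 0h. In the inner root sheath of the hair follicle 2 of 11 markers were higher and 0 lower at 24h, and 1 was higher and 5 lower at 48h. Their sum was 34371 and 31257 FPKM at 24h and 17280 and 14703 FPKM at 48h, against 24594 and 24386 FPKM at 0h. Among 13 sebaceous gland markers 6 were higher at 48h and 0 at 24h. Of 15 hair cuticle and cortex markers 1 was lower at 24h, and 2 were higher and 3 lower at 48h. Of 12 fibroblast markers 0 were called at 24h and 1 was lower at 48h. FPKM are shares of one total, and the part of these shifts in the members' values was not tested.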

How the data were processed

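The authors deposited 1 table of FPKM per gene and library, with 24358 rows and 10 value columns, all used. The notes of the submitters on processing name mm10 as the build and, among tools, Cufflinks 2.2.1 and TopHat2 2.1.1. Not given in the sources used here are their roles, the annotation, strand use and filters. That the unit is FPKM was inferred from Cufflinks and the values. Of the rows, 27 whose symbol had become a date were left out, and 103 rows name several genes. Columns carry the numbers 2 and 3 while the labels carry 1 and 2, so columns were matched to times only.

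The test was limma (version 3.58.1, under R 4.3.3) on log2(FPKM + 1), with 1 mean per time over all 10 libraries, an intensity trend, 5 residual degrees of freedom and the genes that reached 1 FPKM in 2 or more libraries. The fit was tested on simulated data. Alternatives were a pseudocount of 0.1, no filter, median-of-ratios and quantile scaling, only the times compared, a replicate block and leaving out each library. Motifs were searched in RefSeq windows of GRCm38.p6 (Python 3.11.15), and transcript identity was computed with Biopython 1.88 on the longest GENCODE M21 transcripts.

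The members and gene lists were chosen with earlier results of these data known. Full values are given for up to 8 largest rises and falls per comparison with 0h, for the most abundant member of the main families and for the structural genes. S100a7a, Lce1l, Stfa1, Il1r2, Csf3r, S100a4, Cnfn, Alox12b, Nipal4, Dsc1, Nfe2l2, Ovol1, Il1b, Areg and Tgfa were added after their values were seen. One gene of a list is not reported here and was left out of its counts.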

Additional observations from a re-analysis of the deposited data

How the results depend on the processing

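No direction reversed in the 352 refits of single called members: 252 kept their call and 100 lost it with the same sign. The count of members called at 24h was 9 in the fit reported, 3 without a filter on low values and 4 with only the 2 times compared, and between 1 and 10 when 1 library was left out (1 without 0h library 2, 4 without 0h library 3, 2 without 24h library 3). At 48h it was 10, against 19 with only the 2 times compared and between 4 and 15 with 1 library left out (4 without 0h library 2 or either 48h library, 5 without 0h library 3). For 48h against 24h the count of 3 became 0 without a filter and 0 with only the 2 times compared. With 1 library left out, the log2 differences of Crnn, S100a7a and S100a16 were at most -0.74, -0.47 and -0.54. Leaving out a library could not reverse the direction of any call, because the groups compared did not overlap for any called member. The F test's count of 10 became 3 without a filter and between 2 and 12 with 1 library left out. At 6h, 1 member passed with only the 2 times compared and between 0 and 1 with 1 library left out, and at 12h between 0 and 1 did so. For 24h against 12h between 0 and 2 passed. The calls of 0 of 9 members at 24h and 3 of 10 at 48h (Lce3a, S100a8 and Sprr4) were kept in all 10 fits that left out a library, though Lce3a passed the filter only through later libraries, so this shows nothing of its stability. The mean summed FPKM of the members was 33575 at 24h and 28977 at 48h with median-of-ratios scaling, and 30944 at 24h with quantile scaling. Over all genes, the fit reported called 187 higher and 265 lower at 24h. Without a filter these were 71 and 108, and with only the 2 times compared 108 and 136. At 48h the fit reported called 654 higher and 561 lower, and that with only the 2 times compared 757 and 544. The cause of these shifts was not tested, beyond the smaller number of libraries or the larger number of genes in some fits.

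Deviations from the time means correlated between -0.104 and 0.216 for libraries of the same number, so the numbers are not taken to pair the libraries. With a replicate block, 1 member passed at 6h, 2 at 12h, 1 for 24h against 12h, 11 at 24h and 14 at 48h. Of all 13625 genes tested, that fit called 56 higher and 43 lower at 6h, and 101 higher and 221 lower at 12h. It called 37 higher and 5 lower for 24h against 12h, 279 and 332 at 24h, and 810 and 599 at 48h.

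With 2 libraries per time, log2 differences of 1.04 (Sprr1b at 24h) and 1.34 (Lce3c at 48h) did not pass, so changes of that size can go undetected. Depth is not known from FPKM, so no counting error is given.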
